A study of Homo sapiens with 6 samples.

Results

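The genes described here are 39 genes of the ATF4 and amino acid response, chosen by name as ATF4, its partner and target transcription factors, and the stress, amino acid, one-carbon, transporter and tRNA synthetase genes that it is known to drive. All 39 were present among the 30015 genes of the expression table. Of these, 35 members had a mean of at least 10 normalized counts over all libraries and were tested, together with 15251 genes in all. The RNA-seq libraries came from HMV-II, an established human melanoma line of vaginal origin, to ask which genes depend on EZH2, the enzyme of polycomb repressive complex 2 that methylates histone H3 at lysine 27. One group, called Vector, consisted of 3 libraries of cells labelled as wild type, which by the study's methods carried a scrambled shRNA. The other, called shEZH2, consisted of 3 libraries of cells labelled as EZH2 knockdown, made by stable lentiviral shRNA expression and puromycin selection. Both groups were labelled as untreated and were grown in F10 medium with fetal bovine serum. The labels do not name the shRNA, while the table's header calls the knockdown group sh1. The labels do not say that replicates came from separate cultures. With a single shRNA, an effect of the shRNA and of EZH2 loss cannot be told apart, and the p-values measure the spread between these libraries.

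The response starts with kinases that sense amino acid shortage, unfolded protein in the endoplasmic reticulum, heme shortage or double-stranded RNA and phosphorylate the translation factor eIF2. General translation then falls while ATF4 is translated more, so that the ATF4 protein follows its mRNA only in part. ATF4 binds with C/EBP family partners to amino acid response elements and switches on genes that make, import and charge amino acids, as well as the stress factor CHOP (DDIT3) and the feedback inhibitor TRIB3. Melanoma cells are known to use this pathway during nutrient stress and dedifferentiation.

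The composite element to which ATF4 and its C/EBP partners bind was searched as TGATGNAA on both strands of promoter windows from 250 bases before to 50 bases after each annotated start (RefSeq, GRCh38.p14). Windows were found for 32 members, and 10 of these (31.25%) held a match in at least one window. Among all 27305 genes with a window, the share was 4.457%. The matches are shown for 6 members because they were nearly the same 8 bases in genes with different levels and different responses to the knockdown. Capitals mark the match, each 30-base stretch is written 5′ to 3′ on the gene's own strand, and a match is a description of the sequence, not evidence of binding.

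ASNS: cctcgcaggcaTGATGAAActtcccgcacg

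CEBPG: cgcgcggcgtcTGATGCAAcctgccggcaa

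SLC1A4: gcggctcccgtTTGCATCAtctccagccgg

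SLC1A5: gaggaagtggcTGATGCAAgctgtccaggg

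SLC7A1: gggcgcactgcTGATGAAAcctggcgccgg

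NARS: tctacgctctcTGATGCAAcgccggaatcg

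The first base of the match lay 68 bases before the start in ASNS (chr7:97872458-97872487, minus strand), 42 bases before it in CEBPG (chr19:33374060-33374089, plus strand) and 97 bases before it in SLC1A5 (chr19:46784893-46784922, minus strand). In SLC1A4 (chr2:64989381-64989410, plus strand) it lay 7 bases before the start and was read from the other strand. It lay 8 bases past the start in SLC7A1 (chr13:29595663-29595692, minus strand) and 15 bases past it in NARS (chr18:57621804-57621833, minus strand). AARS, ATF3, GARS and MARS also held a match. Of the 4 members that passed the expression threshold below, SLC1A4 was the one with a match, and the windows of MTHFD2, WARS and VLDLR held none. NUPR1, PSPH, PYCR1, GPT2, SHMT2, ALDH1L2 and YARS were not matched to a window.

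The libraries held 13400290 to 19128939 reads counted on genes. EZH2 was listed at 483, 437 and 552 normalized counts in Vector and at 237, 247 and 225 in shEZH2, without overlap. Its level fell by 1.04 on the log2 scale (limma, SE 0.14, adjusted p = 0.0142), which left 0.485 of the Vector mean. Of 8 melanocyte lineage markers, all detected, 5 lay at or above the 90th percentile of Vector levels per length, from PMEL (48607 to 67512 normalized counts) down to S100B. TYRP1 (log2 change 1.68) and MLANA (0.88) rose and TYR (−0.97) fell, and without Vector replicate 2 MLANA was at 0.39, under the fold threshold given below. Of 5 fibroblast markers, LUM (0.74) rose and COL1A2 (−0.83) fell, and COL1A1, DCN and PDGFRA were under the minimum for testing. The summed immune markers PTPRC, CD68 and CD14 stayed between 9.16 and 31.4 normalized counts, and the part of these markers in the results below was not tested. In bulk RNA, a change in the share of cells and a change in RNA per cell cannot be told apart.

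Vector replicate 2 stood apart from Vector replicates 1 and 3, and its departure was related to gene length. Its log2 departure from the mean of the other two had a median of −0.54 in the first of 5 equal length classes of all genes tested, the shortest, and of 0.42 in the last, the longest. Across genes, length and departure had a Spearman correlation of 0.40 over the 15251 genes and of 0.46 over the 35 members, which all share this library. The 18 members up to the median length of 4411 bases had a median departure of −0.42, and the 17 longer members one of 0.00. This library was the lowest of all 6 in 17 of the 35 members and the highest in 10. It was the lowest in 39 and the highest in 31 of the 103 tested genes of related lists described below, and was not ranked over all genes. Its part in the differences below was not tested beyond leaving it out and refitting with each library's length trend removed. With that trend removed, the members' median log2 change was −0.06 and 4 members changed sign. The members' log2 changes without Vector replicate 2 are given beside those with it.

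**Figure D1:**
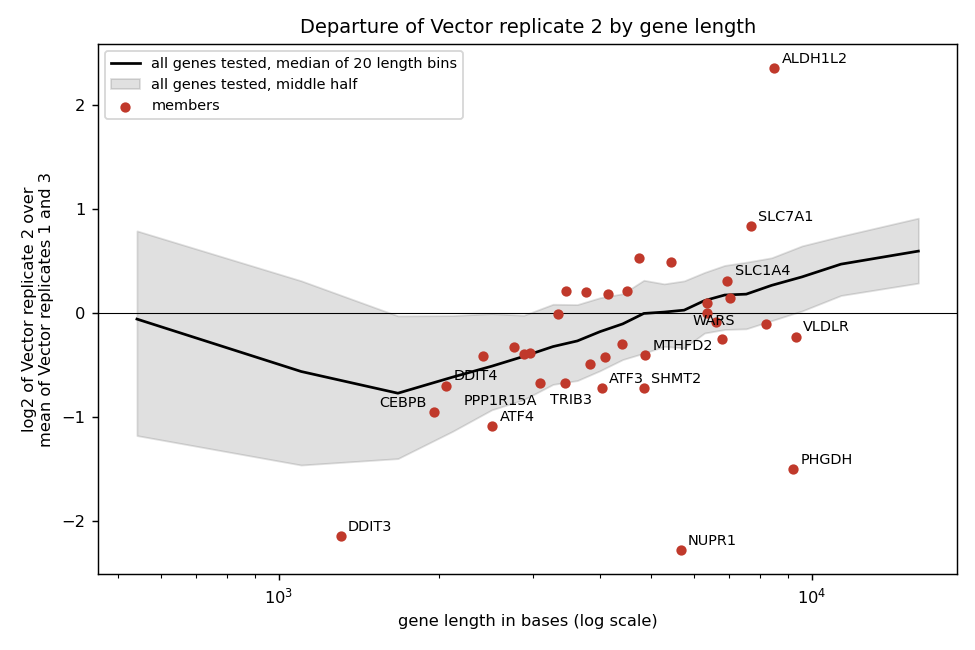
Departure of Vector replicate 2 from Vector replicates 1 and 3 (y axis, log2) against gene length in bases (x axis, log scale), with all genes tested as a black median line and a grey interquartile band and the 35 tested members as red points. Short members such as DDIT3 (−2.14), ATF4 (−1.09) and CEBPB (−0.95) lie below 0, while the longer SLC7A1 (0.84) and ALDH1L2 (2.36) lie above it. Against this trend, NUPR1 (5674 bases, −2.27) and PHGDH (9217 bases, −1.50) are long and lie far below 0.

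The members changed in both directions and mostly stayed under the threshold. Among the 35 tested members, 2 rose (MTHFD2 and VLDLR) and 2 fell (SLC1A4 and WARS) at the study's threshold of an unadjusted p under 0.05 and a log2 change beyond 0.585. These were 5.71% of the members in each direction, against 7.55% of all genes tested that rose and 7.07% that fell. At an adjusted p under 0.05, 1 member rose and 2 fell (limma), while 2.28% of all genes rose and 1.84% fell. The median log2 change of the members was 0.08, with 21 above 0 and 14 below, beside a median of 0.04 over all genes.

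Every shEZH2 library was above every Vector library in 11 members (31.4%) and below in 4 (11.4%). For all genes tested, such separation was found in 18.4% for higher and 16.5% for lower values. With 3 libraries against 3, an exact permutation test of a single gene cannot go below 0.1, so calls rest on the fit across all genes. Leaving out Vector replicate 2 turned the median of the members to −0.14 and changed the sign of 6 of them. MTHFD2 then remained as the 1 riser and SLC1A4 and WARS as the 2 that fell, beside 7.05% and 5.64% of all genes. The count at an adjusted p under 0.05 grew to 12 members (34.3%), 6 higher and 6 lower, beside 18.9% of all genes. The reads of Vector replicates 1 and 3 differed by a mean chi-square per gene of only 2.153. That value was 6.414 to 23.43 between shEZH2 libraries, and 118.9 and 116.4 between Vector replicate 2 and the other Vector libraries. All p-values given without Vector replicate 2 therefore rest on a Vector spread of 2 closely alike libraries.

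**Figure D2:**
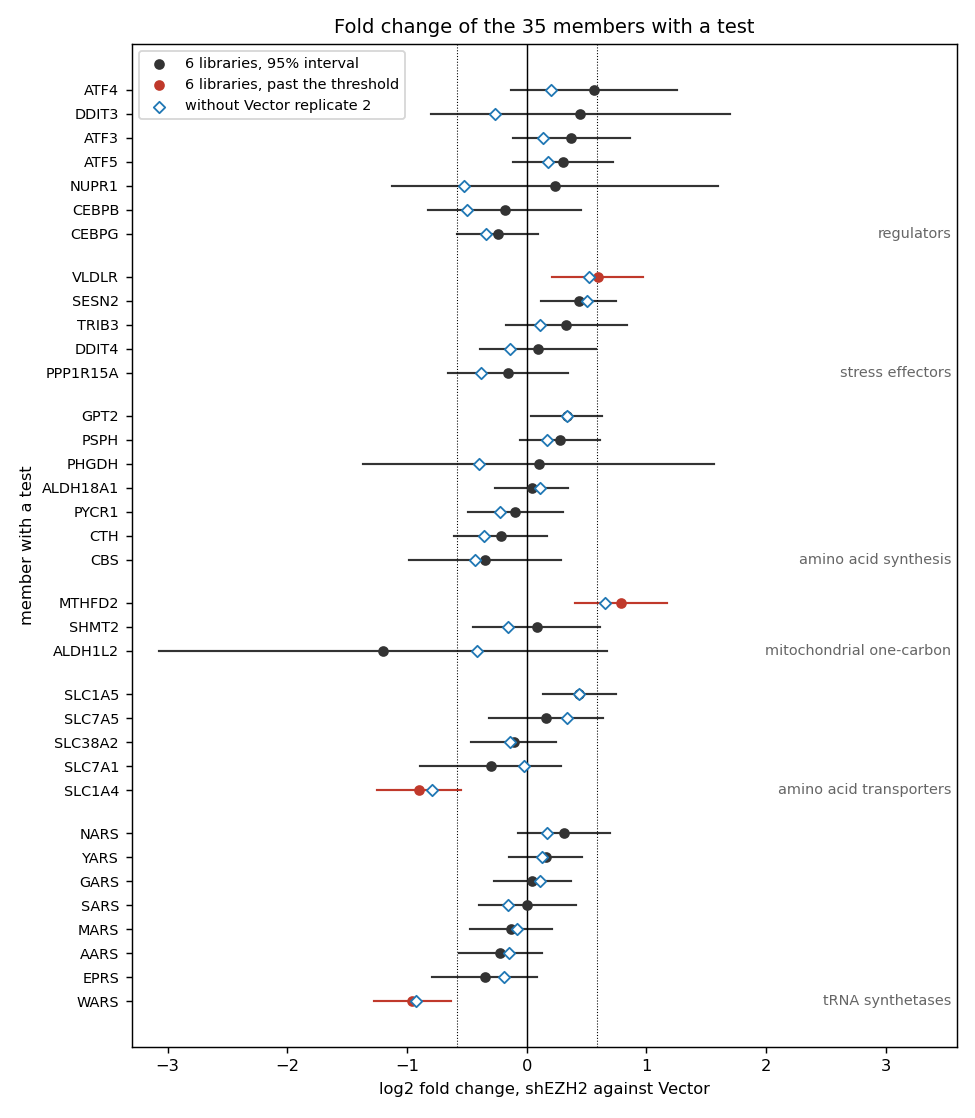
Log2 fold change of shEZH2 against Vector (x axis) for the 35 tested members (y axis, by function), with bars for the 95% interval, red for members past the threshold (dotted lines at 0.585 in either direction) and blue diamonds for the value without Vector replicate 2. MTHFD2 (0.79) and VLDLR (0.59) lie to the right, SLC1A4 (−0.90) and WARS (−0.96) to the left, and the diamonds of DDIT3 (−0.27) and NUPR1 (−0.52) lie on the other side of 0 from their points.

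The 7 regulators were well expressed, and 0 of them passed the threshold by limma, edgeR or DESeq2, with 0 at an unadjusted p under 0.05 in limma. ATF4 (chr22:39519695-39522685, GRCh38, plus strand) had 13197, 6121 and 12819 normalized counts in Vector and 15618, 14275 and 14929 in shEZH2. The groups did not overlap, but Vector replicate 2 lay far under the other 5 libraries. The log2 change of ATF4 was 0.56 (SE 0.298, 95% interval −0.13 to 1.25, limma adjusted p = 0.298), and without Vector replicate 2 it was 0.20.

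ATF3, a stress-induced factor of the same family, had 958, 594 and 999.8 normalized counts in Vector and 1069, 1060.5 and 1091 in shEZH2, again without overlap (log2 change 0.37). ATF5, which is translationally controlled like ATF4, had 296, 212 and 259.6 in Vector and 357, 313 and 276 in shEZH2, with overlap (log2 change 0.31). Without Vector replicate 2 the differences were 0.13 for ATF3 and 0.18 for ATF5.

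DDIT3, which encodes the pro-apoptotic factor CHOP, was one of the regulators whose sign rested on 1 library. Its normalized counts were 3983, 898 and 3947 in Vector and 3692, 3105 and 3119 in shEZH2. The log2 change of 0.45 (95% interval −0.80 to 1.70) became −0.27 without Vector replicate 2. The gene's listed length is short (1307 bases). Its whole span, introns included (chr12:57516588-57521737), shares 982 bases with MARS and 1028 with MBD6 on the other strand. The strand setting of the counting was not given in the sources used here. Reads of DDIT3 over the shared bases therefore cannot be told apart from those of MARS and MBD6.

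NUPR1, a small stress-induced chromatin protein, had 2074, 426 and 2058 normalized counts in Vector and 1911, 1175 and 1327 in shEZH2. With all libraries its difference was 0.24 in limma but −0.05 in both edgeR and DESeq2. Without Vector replicate 2 it was −0.52 (limma adjusted p = 0.0396). The same library was the lowest of the 6 in 6 of the 7 regulators.

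CEBPB and CEBPG encode dimerization partners of ATF4. CEBPB had 7446, 3667 and 6745 normalized counts in Vector and 5783, 4815 and 4503.5 in shEZH2, so that both other Vector libraries lay above all shEZH2 libraries. The log2 change was −0.18 with all 6 libraries and −0.50 without Vector replicate 2 (limma adjusted p = 0.0082). CEBPG had 3202, 2666 and 3324 in Vector and 2377, 2765 and 2599.8 in shEZH2, and its difference of −0.24 became −0.34 (adjusted p = 0.0295). Neither C/EBP gene reached the fold threshold.

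**Figure D3:**
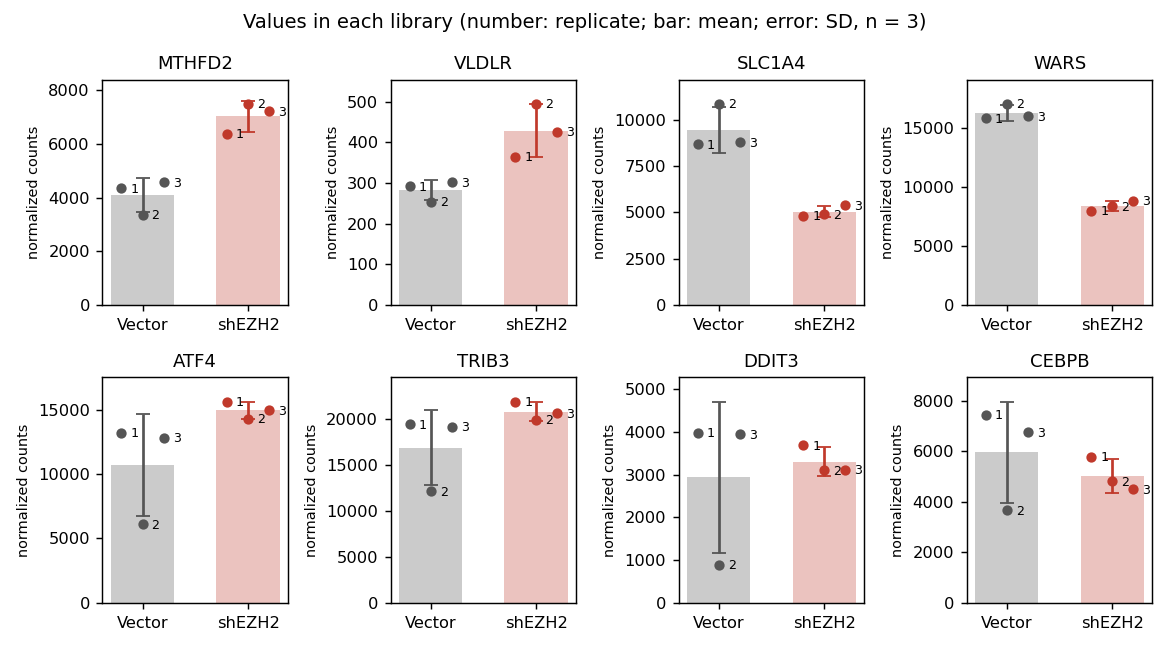
Normalized counts (y axis, from 0) of 8 members in each Vector (grey) and shEZH2 (red) library, with bars for the mean, error bars for the SD (n = 3) and numbers for the replicate. MTHFD2, VLDLR, SLC1A4 and WARS separate with all libraries, whereas ATF4, TRIB3, DDIT3 and CEBPB have a Vector replicate 2 (6121, 12155, 898 and 3667) far under the other Vector libraries.

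Among 5 tested stress effectors, VLDLR rose and the other 4 did not pass the threshold. VLDLR (chr9:2621834-2660053, plus strand), a lipoprotein receptor induced by ATF4 during endoplasmic reticulum stress, had 292, 254 and 301 normalized counts in Vector and 365, 494 and 426 in shEZH2. The groups did not overlap. The log2 change of 0.59 (SE 0.163, limma adjusted p = 0.0881) lay just past the threshold and was 0.52 without Vector replicate 2 and 0.48 without shEZH2 replicate 2, both under it.

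SESN2, which relays leucine shortage to mTORC1, had 1310.3, 1517 and 1307 normalized counts in Vector and 1943, 1702 and 1939 in shEZH2. All shEZH2 libraries were higher, by 0.43 on the log2 scale (SE 0.135, limma adjusted p = 0.117), which is under the fold threshold. Without Vector replicate 2 the difference was 0.51 (adjusted p = 0.0045). Unlike most of its group, SESN2 was not low in that library.

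TRIB3, a pseudokinase that feeds back on ATF4, had 19434, 12155 and 19156 normalized counts in Vector and 21921, 19927 and 20664 in shEZH2. Its groups did not overlap, and its log2 change was 0.33 with all libraries and 0.11 without Vector replicate 2. DDIT4, an inhibitor of mTORC1, had 2956, 1838 and 3004 in Vector and 2857, 2584 and 2702 in shEZH2, which overlapped, with a change of 0.10 that turned to −0.14.

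PPP1R15A encodes GADD34, the phosphatase subunit that reverses eIF2 phosphorylation. Its normalized counts were 8384, 5265 and 8386 in Vector and 7124, 5848.5 and 6412 in shEZH2. The change was −0.16 with all libraries and −0.38 without Vector replicate 2 (limma adjusted p = 0.0188). The secreted glycoprotein gene STC2 had 5 reads in all Vector and 7 in all shEZH2 libraries and was not tested.

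Of 7 tested amino acid synthesis genes, 0 passed the threshold by limma, edgeR or DESeq2, with 1 (GPT2) at an unadjusted p under 0.05 in limma, and several of the best known genes were nearly absent. ASNS (chr7:97852118-97872542, minus strand), the asparagine synthetase gene and the textbook reporter of the amino acid response, had 0 reads in the Vector libraries and 4 in the shEZH2 libraries. A count of 0 allows up to 3 reads per library, or 3.05 to 3.49 normalized counts in Vector, for counting error only, so no fold is given. All 20425 bases of ASNS also lie within AC079781.5, a transcript on the same strand with a mean of 0.492 normalized counts, and how reads over both were assigned was not given in the sources used here. The ASNS value is therefore uncertain, although its promoter holds the element shown above.

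The serine pathway was uneven. PHGDH, which takes the first step from glycolysis to serine, had 33 reads in Vector and 43 in shEZH2, and PSAT1, which takes the next, had 2 and 1. PSPH, which takes the last step, was by contrast well expressed, with 842 ± 111 normalized counts in Vector and 1018 ± 38.3 in shEZH2 (SD, n = 3). The PSPH groups did not overlap and differed by 0.28 on the log2 scale (limma adjusted p = 0.283), or 0.17 without Vector replicate 2. Neither PHGDH nor PSAT1 overlaps another gene in the table.

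PYCR1, the mitochondrial proline synthesis gene, was the highest member of this group per length. It had 2816, 2134 and 2781 normalized counts in Vector and 2737.5, 2102 and 2378 in shEZH2, which overlapped, with a log2 change of −0.10, or −0.23 without Vector replicate 2. ALDH18A1, which acts before it in the same route, differed by 0.04, or 0.11 without that library. GPT2, the mitochondrial alanine transaminase, had 1019.6, 983 and 947 in Vector and 1319.7, 1131 and 1272 in shEZH2 without overlap, and its difference of 0.33 (limma adjusted p = 0.177) was the same without Vector replicate 2.

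The transsulfuration genes CTH and CBS, which turn homocysteine into cysteine, lay at −0.22 and −0.35 on the log2 scale. Their adjusted p-values were 0.454 and 0.464 (limma), and their intervals reached up to 0.17 and 0.29. Neither was separated between the groups, and without Vector replicate 2 they were at −0.35 and −0.43.

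In the mitochondrial one-carbon group, MTHFD2 rose while SHMT2, the step before it, did not pass the threshold. MTHFD2 (chr2:74198562-74217565, plus strand), the methylenetetrahydrofolate dehydrogenase of proliferating cells, had 4341, 3365 and 4567.5 normalized counts in Vector and 6374, 7477 and 7202 in shEZH2. Every shEZH2 library was above every Vector library. The rise was 1.73-fold (log2 0.79, SE 0.166, limma adjusted p = 0.0457), and 0.65 on the log2 scale without Vector replicate 2 (adjusted p = 6.4e-04).

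SHMT2, which moves a carbon from serine onto folate, had 9930.0, 6033 and 9915 normalized counts in Vector and 9984, 8006 and 8825 in shEZH2. The groups overlapped, and the log2 change was 0.08 with all libraries and −0.16 without Vector replicate 2. ALDH1L2, which oxidizes formyl-folate in mitochondria, had 54 reads in Vector, of which 37 were in Vector replicate 2, and 20 in shEZH2. Its log2 change of −1.20 had an interval from −3.07 to 0.67 and became −0.42 without Vector replicate 2. The whole span of ALDH1L2, introns included, shares 54414 bases with C12orf45 on the other strand, while its listed length is 8507 bases.

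Of the 5 tested amino acid transporters, SLC1A4 fell and the other 4 did not pass the threshold. SLC1A4 (chr2:64988477-65023865, plus strand), the neutral amino acid exchanger ASCT1, had 8672, 10856 and 8792 normalized counts in Vector and 4833, 4909 and 5390.5 in shEZH2. The groups lay far apart, and the level fell by 0.90 on the log2 scale to 0.537 of Vector (SE 0.151, limma adjusted p = 0.0251). Without Vector replicate 2 it fell by 0.79.

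SLC1A5, which encodes the glutamine exchanger ASCT2, had 2555, 2509 and 2480.3 normalized counts in Vector and 3791, 3132 and 3350.2 in shEZH2. The Vector libraries were tightly grouped and all lower than the shEZH2 libraries. The log2 difference was 0.44 (SE 0.132, limma adjusted p = 0.108), under the fold threshold, and was also 0.44 without Vector replicate 2. Both genes held the promoter match shown above, read on opposite strands.

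SLC7A5, the light chain of the leucine transporter LAT1, was the highest of all members per length. It had 26583, 37826 and 25637.5 normalized counts in Vector and 32987, 31184 and 35073.5 in shEZH2, and the groups overlapped through Vector replicate 2. The log2 change was 0.16 with all libraries and 0.34 without that library (limma adjusted p = 0.0212). SLC7A1, the cationic amino acid transporter CAT1, differed by −0.30 and, without Vector replicate 2, by −0.02. The glutamine transporter SLC38A2 differed by −0.11, or −0.14 without that library, and the glycine transporter SLC6A9 had 9 and 6 reads in all and was not tested.

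The 8 tRNA synthetases, which charge tRNAs with amino acids, were all strongly expressed, and WARS alone passed the threshold. WARS (chr14:100333788-100376805, minus strand), which charges tryptophan and is also known as an interferon-gamma-induced gene, had 15849.7, 17083 and 16056.5 normalized counts in Vector and 8006, 8404 and 8866 in shEZH2. All Vector libraries lay far above all shEZH2 libraries. Its level fell by 0.96 on the log2 scale to 0.516 of Vector (SE 0.139, limma adjusted p = 0.0166), and by 0.92 without Vector replicate 2.

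The other 7 synthetases ranged from −0.35 (EPRS) to 0.31 (NARS) on the log2 scale, and without Vector replicate 2 these ends were −0.19 and 0.17. AARS, the highest of them per length, had 14482, 16859 and 14538 normalized counts in Vector and 13166, 12516 and 13586 in shEZH2. AARS and MARS were lower in shEZH2 without overlap, at −0.22 and −0.13, and NARS and YARS were higher without overlap, at 0.31 and 0.16. GARS (0.05) and SARS (0.00) overlapped between the groups. With Vector replicate 2 left out, AARS was at −0.15, MARS at −0.08, YARS at 0.13, GARS at 0.11 and SARS at −0.16.

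Per kilobase of gene, the members spanned almost the whole range of expression in Vector cells. Among the 15251 genes tested, 23 members lay at or above the 90th percentile, and SLC7A5 (99.6), TRIB3 (99.5) and ATF4 (99.4) were at the top. At the other end, PHGDH (0.688) and ALDH1L2 (2.28) lay under the 5th percentile, and ASNS, PSAT1, STC2 and SLC6A9 were under the minimum for testing. All 8 synthetases and both TRIB3 and PPP1R15A were among the high members. Of the 7 regulators, 4 were at or above the 90th percentile, with ATF5 lowest at 55.4. PHGDH and PSAT1 stayed low in both groups, and the ASNS count is uncertain as given above.

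**Figure D4:**
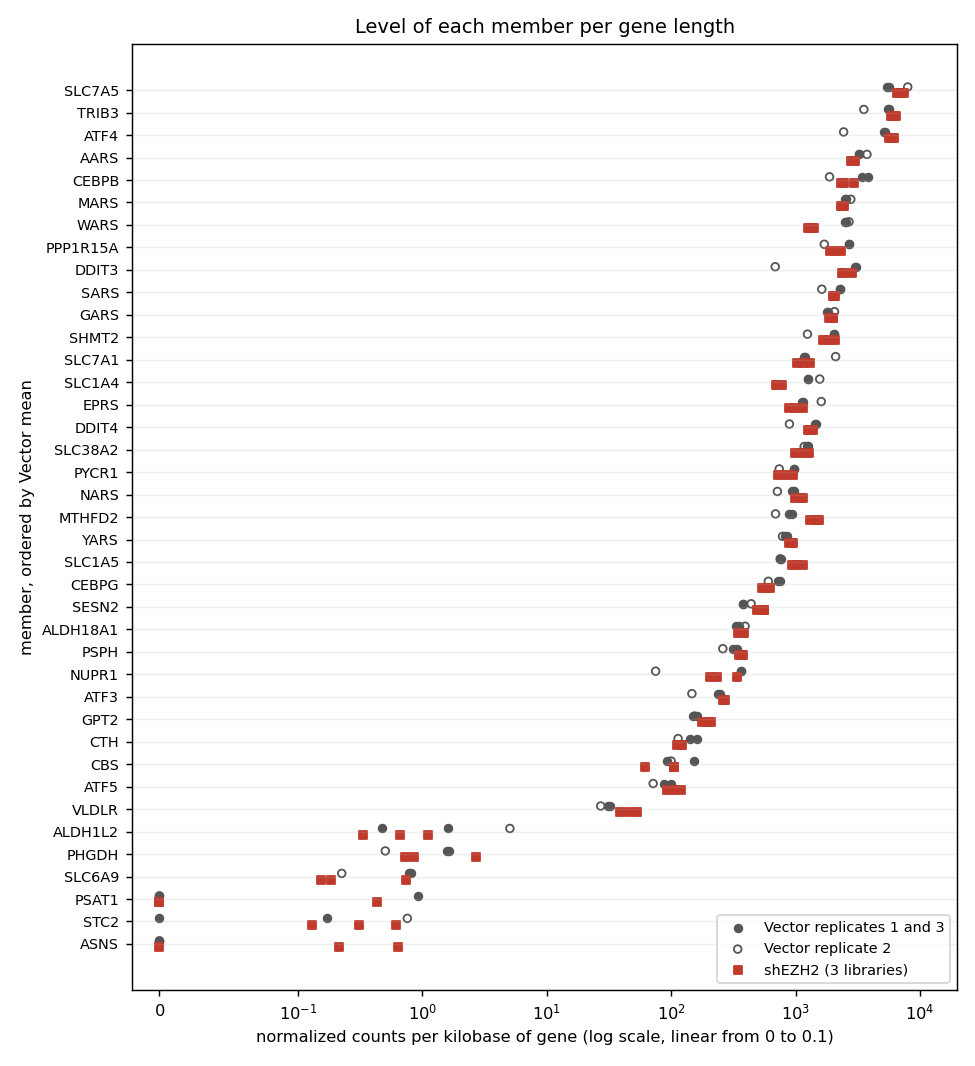
Normalized counts per kilobase of gene (x axis, log scale, linear from 0 to 0.1) for the 39 members (y axis, ordered by Vector mean) in Vector (grey, with Vector replicate 2 open) and shEZH2 (red squares) libraries. From VLDLR upward the members form a continuous range to SLC7A5, while ALDH1L2, PHGDH, SLC6A9, PSAT1, STC2 and ASNS form a separate low group in both conditions.

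Other genes of the pathway, none of them a member, were grouped in 7 lists. Of 103 such genes tested, 6 rose (5.83%) and 10 fell (9.71%), beside the 7.55% and 7.07% of all genes given above. At an unadjusted p under 0.05 alone (limma) there were 29 of the 103, beside 1812 higher and 1726 lower of the 15251 genes tested. The 16 genes for eIF2 kinases, eIF2 and eIF2B included 1 that fell, DNAJC3 (log2 change −0.73), an inhibitor of the eIF2 kinase PERK. That gene was at 613, 1193 and 582 normalized counts in Vector and at 393, 492 and 486 in shEZH2, and its difference of −0.39 without Vector replicate 2 did not reach the threshold. The sensor of amino acid shortage itself, EIF2AK4 (GCN2), differed by −0.12, or 0.05 without that library.

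Further ATF4 targets also moved in both directions. Of 16 tested, CHAC1 (1.43), INHBE (1.03) and GADD45A (0.96) rose and SLC7A11 (−1.07), KLHL24 (−0.85) and NFIL3 (−0.66) fell. These were 18.8% in each direction, beside 7.55% of all genes tested that rose and 7.07% that fell, and the list's median was 0.32. In the fit without Vector replicate 2, 2 of the 16 rose and 4 fell, VEGFA (−0.59) among them, beside 7.05% and 5.64% of all genes. The median then turned to −0.18. CHAC1, which degrades glutathione, had 292, 144 and 278 normalized counts in Vector and 646, 587 and 604 in shEZH2, and rose by 1.10 on the log2 scale without Vector replicate 2. SLC7A11, the cystine transporter, fell by 0.91 without that library. GADD45A, a growth arrest gene, was at 0.44 without it, which did not pass the fold threshold.

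Folate metabolism beyond the mitochondrial members held further risers. Of 11 tested folate and glycine cleavage genes, 2 rose (18.2%) and 0 fell by limma, edgeR and DESeq2 alike. For all genes tested the limma shares were 7.55% and 7.07%. At an unadjusted p under 0.05 in limma there were 5 of the 11, beside 1812 higher and 1726 lower of the 15251 genes. The 2 that rose were TYMS (0.80), which uses folate for thymidine synthesis, and SHMT1 (0.83), the cytosolic counterpart of SHMT2. Without Vector replicate 2, SHMT1 was at 0.70, while TYMS was at 0.57, under the fold threshold. The mitochondrial MTHFD1L, which acts after MTHFD2, differed by −0.39 (limma adjusted p = 0.115), with every shEZH2 library under every Vector library. Without Vector replicate 2 it was at −0.38 (limma adjusted p = 0.0107), under the fold threshold.

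No synthetase other than WARS passed the threshold. Among 15 other genes for cytosolic synthetases and their complex, 0 passed the threshold in either direction by limma, edgeR or DESeq2. Of 17 mitochondrial synthetases, 0 passed by the same tools. The medians were 0.07 and 0.10. For all genes tested the limma shares were 7.55% higher and 7.07% lower. At an unadjusted p under 0.05 there were 4 of the 15 and 1 of the 17 (limma). Over all 15251 genes tested there were 1812 higher and 1726 lower. The 4 (CARS, FARSA, HARS and TARS) were higher, by 0.30 to 0.41, or 0.26 to 0.43 without Vector replicate 2. Every shEZH2 library was above every Vector library in 40% of the 15 and below in 6.67%, beside 18.4% and 16.5% of all genes. For the 17 these shares were 23.5% and 0%. WARS2, the mitochondrial counterpart of WARS, differed by 0.13.

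**Figure D5:**
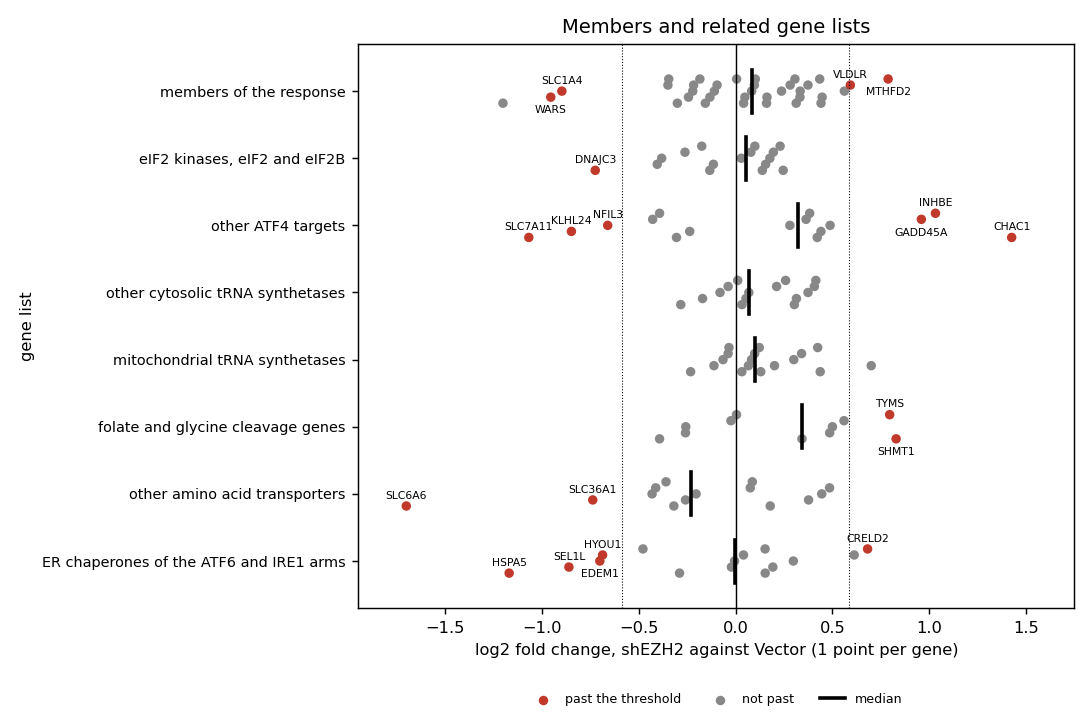
Log2 fold change of shEZH2 against Vector (x axis) for each tested gene (points) of the members and of 7 related lists (y axis), with red for genes past the threshold (dotted lines at 0.585 in either direction) and a black line for each list's median. The members scatter around 0.08 with MTHFD2 and VLDLR at the right and SLC1A4 and WARS at the left, and the 2 synthetase lists hold no red point.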

How the data were processed

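Poly(A)-selected RNA was sequenced on an Illumina NovaSeq. Per the methods, featureCounts (v1.5.0-p3) was used for counting, and the authors deposited normalized values, a signal in units of reads divided by one DESeq2 size factor per library (DESeq2 1.20.0 per the labels). The aligner, the strand setting and the rule for reads over 2 genes were not given in the sources used here. The labels name hg19, but the deposited coordinates are GRCh38 (98.27% of 20847 genes within 2000 bases of RefSeq, against 5.462% of 29478 for GRCh37). Deposited group means and the authors' own fold changes and p-values were not used. Whole reads were recovered for 100% of values (tolerance 0.1 reads).

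Here, log2(normalized count + 1) was fitted with limma 3.58.1 (R 4.3.3, mean-variance trend) on genes with a mean of at least 10, two-sided, with Benjamini-Hochberg adjustment over 15251 genes. The fold changes are therefore on the log2(value + 1) scale. The fit was tested on simulated counts that held no outlying library and no length trend, so that test does not cover the departure of Vector replicate 2. The alternatives were edgeR 4.0.16 and DESeq2 1.42.0 on recovered reads, other scalings, pseudocounts of 0.1 and 5, other minimum means, a length trend removed and each library left out. Library values were given for members past the threshold, regulators and effectors, and the highest member of each functional group, and from each other list the 4 genes past the threshold furthest from 0 were named. KLHL24, NFIL3, CRELD2, the markers and genes of other lists under the threshold were named after their values were seen. One gene of a related list is not reported here. The members and lists were chosen with earlier results of these data known.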

Additional observations from a re-analysis of the deposited data

How the results depend on the processing

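Across 18 alternatives, MTHFD2, SLC1A4 and WARS stayed past the threshold in every one, and EZH2 kept its direction and call. VLDLR lost its call with upper-quartile scaling (0.50, leaving 1 member higher), without Vector replicate 2, without shEZH2 replicate 2 and at an adjusted p under 0.05. Leaving out 1 library gave 1 to 3 members higher and 2 to 3 lower, with ATF4 (0.75) called without Vector replicate 1 and ALDH1L2 called without Vector replicate 3 (−1.98) and by DESeq2 (−1.75). It gave 849 to 1525 of all genes higher and 773 to 1318 lower, 4 to 7 genes of the other lists higher and 8 to 10 lower, and an EZH2 change of −1.12 to −0.96. At an adjusted p under 0.05, 1 member was higher, with 348 of all genes higher and 281 lower and 2 and 5 genes of the other lists. An unadjusted p under 0.05 alone gave 5 members higher (adding SESN2, GPT2 and SLC1A5), 1812 of all genes higher and 1726 lower, and 16 genes of the other lists higher. Without Vector replicate 2, 12 members had an adjusted p under 0.05, and 0 to 3 members did in the other settings but DESeq2 (5) and the removed length trend (4). The median of all genes moved between −0.05 and 0.07 over the alternatives, and 0 to 6 members changed sign. With a replicate block, the same 2 members were higher and the same 2 lower, 1 of them at an adjusted p under 0.05. Whether the replicate numbers pair the samples is not known. The deviations of same-numbered libraries correlated at 0.28, 0.22 and −0.11, and those of differently numbered ones at −0.31 to 0.25. These ranges overlap and cannot settle it. Depth limits ASNS, PSAT1, STC2, SLC6A9, PHGDH and ALDH1L2, each under 100 reads in all.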

Other observations

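Of 15 tested chaperone and quality control genes of the endoplasmic reticulum, which the ATF6 and IRE1 arms of the unfolded protein response control, 4 fell and 1 rose, beside 7.07% and 7.55% of all genes tested. HSPA5, the chaperone BiP, had 44378, 29046 and 45748 normalized counts in Vector and 17056, 17438.5 and 17393.5 in shEZH2, and fell by 1.17 on the log2 scale (SE 0.214, limma adjusted p = 0.0305). SEL1L (−0.86), EDEM1 (−0.70) and HYOU1 (−0.69), which act in degradation and folding of secreted proteins, fell as well, standing at −0.70, −0.63 and −0.62 without Vector replicate 2, and CRELD2 (0.68) rose. Without Vector replicate 2, 5 of the 15 passed the threshold downward and none upward (limma), beside 5.64% and 7.05% of all genes. HSPA5 was then at −1.38 and CRELD2 at 0.46. HSP90B1 (−0.29), PDIA6 (0.30) and CALR (0.19) did not pass with all libraries.

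Among 14 other amino acid transporters tested, 2 fell (14.3%) and 0 rose by limma, edgeR and DESeq2 alike. For all genes tested the limma shares were 7.07% and 7.55%. At an unadjusted p under 0.05 in limma there were 3 of the 14, beside 1812 higher and 1726 lower of the 15251 genes. SLC6A6, the taurine transporter, had 10162, 13032 and 10066 normalized counts in Vector and 3074, 3379 and 3728 in shEZH2, and fell by 1.70 (SE 0.164, limma adjusted p = 0.00607) with all libraries; it fell by 1.58 without Vector replicate 2. SLC36A1, a lysosomal proton-coupled transporter, was at −0.74 (adjusted p = 0.0925) and at −0.54 without Vector replicate 2, under the fold threshold.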
